A study of Mus musculus with 18 samples.

Results

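The NRF2 and antioxidant defence genes are 45 genes of the normalized counts table, chosen by name, out of 27179 genes listed there. All 45 had a mean of at least 10 over the 18 libraries, and so none was left out. They comprise 2 regulators, 5 stress-induced enzymes, 4 enzymes of glutathione synthesis and recycling, 5 glutathione peroxidases and 8 glutathione transferases. The others are 5 genes of the thioredoxin system, 6 peroxiredoxins, 3 superoxide dismutases with catalase, 5 enzymes of NADPH supply and its pathways, and the oxidant source Nox4. RNA was sequenced from primary mesenchymal stem cells (MSCs) grown out of mouse bone marrow, all of C57BL6 genotype, without any transgene or drug in any group. Young MSCs came from mice aged 6 weeks and old MSCs from mice aged 18 to 24 months, and both were cultured by themselves. Rejuvenated old MSCs were old cells that had shared a well with young MSCs for 7 days, each kept on its own side of a 0.4 µm Transwell membrane that lets soluble factors through, with 100000 cells per well. Old cells sharing a well with other old cells are not among the libraries used here, so an effect of company as such and one of young cells cannot be told apart. Each group had 6 libraries, labelled as biological replicates. Nothing in the sources used here ties a library to an animal, so the p-values below measure the spread between these libraries, which may be technical.

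NRF2, encoded by Nfe2l2, is the transcription factor that turns on many enzymes that detoxify oxidants and electrophiles. In unstressed cells KEAP1 binds it and hands it to a ubiquitin ligase for degradation, and when oxidants modify KEAP1 the factor accumulates, pairs with a small MAF protein and binds antioxidant response elements. Much of its activity is therefore set at the protein level, which RNA libraries do not measure. The defence it serves rests on glutathione and thioredoxin, small thiol carriers that are kept reduced with electrons from NADPH and that feed the peroxidases. In bone marrow stromal cells these genes are known for their link to survival under oxidative stress and to ageing.

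The antioxidant response element has a 9-base core, TGACNNNGC, in which N is any base. It was searched on both strands in the RefSeq promoter windows of GRCm38.p6 (mm10), which run from 250 bases before to 50 after each start, and 38 of the 45 genes had a window. The core was present in 11 of these 38 (28.9%), in 17% of the 10951 tested genes with a window and in 12.4% of all 32851 windows. The AP-1 motif TGANTCA, which can overlap the core, was present in 6 of the 38 genes (15.8%), in 6.42% of the tested genes with a window and in 7.81% of all windows. The stretches below show the cores that lay upstream of the start, 5′ to 3′ on the strand of the gene, with the core in capitals. Where the capitals begin with GC, the core is on the opposite strand.

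Prdx1, chr4:116685446-116685494, forward strand: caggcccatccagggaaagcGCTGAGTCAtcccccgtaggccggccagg
Txnrd1, chr10:82859094-82859142, forward strand: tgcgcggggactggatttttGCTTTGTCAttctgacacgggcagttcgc
G6pdx, chrX:74428909-74428957, reverse strand: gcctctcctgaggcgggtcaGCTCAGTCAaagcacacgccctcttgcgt
Gclm, chr3:122245403-122245451, forward strand: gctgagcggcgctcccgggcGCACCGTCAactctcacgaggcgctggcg
Mgst1, chr6:138140451-138140499, forward strand: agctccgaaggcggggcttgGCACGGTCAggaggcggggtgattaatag
Sod1, chr16:90220686-90220734, forward strand: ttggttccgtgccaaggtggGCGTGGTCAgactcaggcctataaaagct
Gstm5, chr3:107895792-107895840, forward strand: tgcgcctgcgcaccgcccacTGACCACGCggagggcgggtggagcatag
Nfe2l2, chr2:75704875-75704913, reverse strand: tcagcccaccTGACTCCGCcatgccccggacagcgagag

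The cores of Me1, Pgd and Srxn1 lay across or after the start and are not shown. A core in these letters is a description of the sequence and not a bound site. The known elements of Hmox1, for one, lie far upstream of this window.

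The libraries held 22936251 to 25648769 reads in young MSCs, 24965971 to 29559194 in old MSCs and 26018046 to 29155223 in rejuvenated old MSCs. All 12 stromal markers were above a mean of 10 in young MSCs and 11 of 12 in old and rejuvenated old MSCs, where Thy1 was near 0. The 12 macrophage markers summed to 1000 to 1108 normalized counts in young MSCs, 13270 to 16588 in old MSCs and 13210 to 16201 in rejuvenated old MSCs. Lyz2 alone ran from 8850 to 11494 in old MSCs. Ptprc and Adgre1 were at 0 in every young library, while the mean of Aif1 was higher in young than in old MSCs (23.1 against 15.0). The 6 adipocyte markers summed to 57.7 to 79.3, 3126 to 3403 and 3198 to 4357 in the same order. The 7 endothelial markers summed to 6961 to 7326 in young MSCs, mostly from Cd34, to 37.6 to 66.0 in old MSCs and to 46.3 to 422 in rejuvenated old MSCs. Of 6 erythroid markers in the table, the sum was 11.7 to 26.8 in young MSCs, 715 to 844 in old MSCs and 586 to 702 in rejuvenated old MSCs. Epor alone ran from 702 to 830 in old MSCs. In bulk RNA, fewer cells of a type and less RNA per cell cannot be told apart. For 30 genes with at most 3 reads in every old library and a mean of at least 200 in young MSCs, rejuvenated old replicate 1 stood at a median of 2.80% of the young mean, against 0.00522% to 0.193% in replicates 2 to 6. In a fit without that library, 16 of the 45 genes were called higher and 16 lower after co-culture than in old MSCs, at an adjusted p under 0.05. With all 18 libraries these counts were 14 and 16, beside 41.6% of all genes called in either direction.

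Co-culture with young MSCs was followed by lower RNA for NRF2 itself and for the stress-induced enzymes of the set, and by higher RNA for several peroxidases. Other enzymes that remove peroxides (Gpx1, Prdx1 and Cat) fell. Nor did NRF2 targets move together, since of 38 further targets outside the set 10 rose and 12 fell. Gclm was lower, but did not pass the test (log2 fold change -0.13, adjusted p = 0.0736). Of the 45 genes, 14 had risen and 16 had fallen after co-culture, with the old MSCs as reference, at an adjusted p under 0.05 (limma on log2(normalized count + 1), with Benjamini-Hochberg adjustment over 14353 genes). Among all genes tested, 21.0% rose and 20.6% fell. The genes called were thus 66.7% of the set, beside 41.6% of all genes. The changes were modest in size. Of these genes, 6 passed an absolute log2 fold change of 0.5 (2 up and 4 down), beside 8.63% of all genes, and none passed 1 (2.34% of all genes), with Txnip just under it. In 7 genes every rejuvenated old library lay above every old one, and in 16 every one lay below, beside 10.4% and 11.6% of all genes. The median log2 fold change of the 45 genes was 0.01, with 0.01 over all genes, and their median absolute log2 fold change was 0.21 against 0.15. All fold changes here are differences of group means of log2(normalized count + 1).

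**Figure D1:**
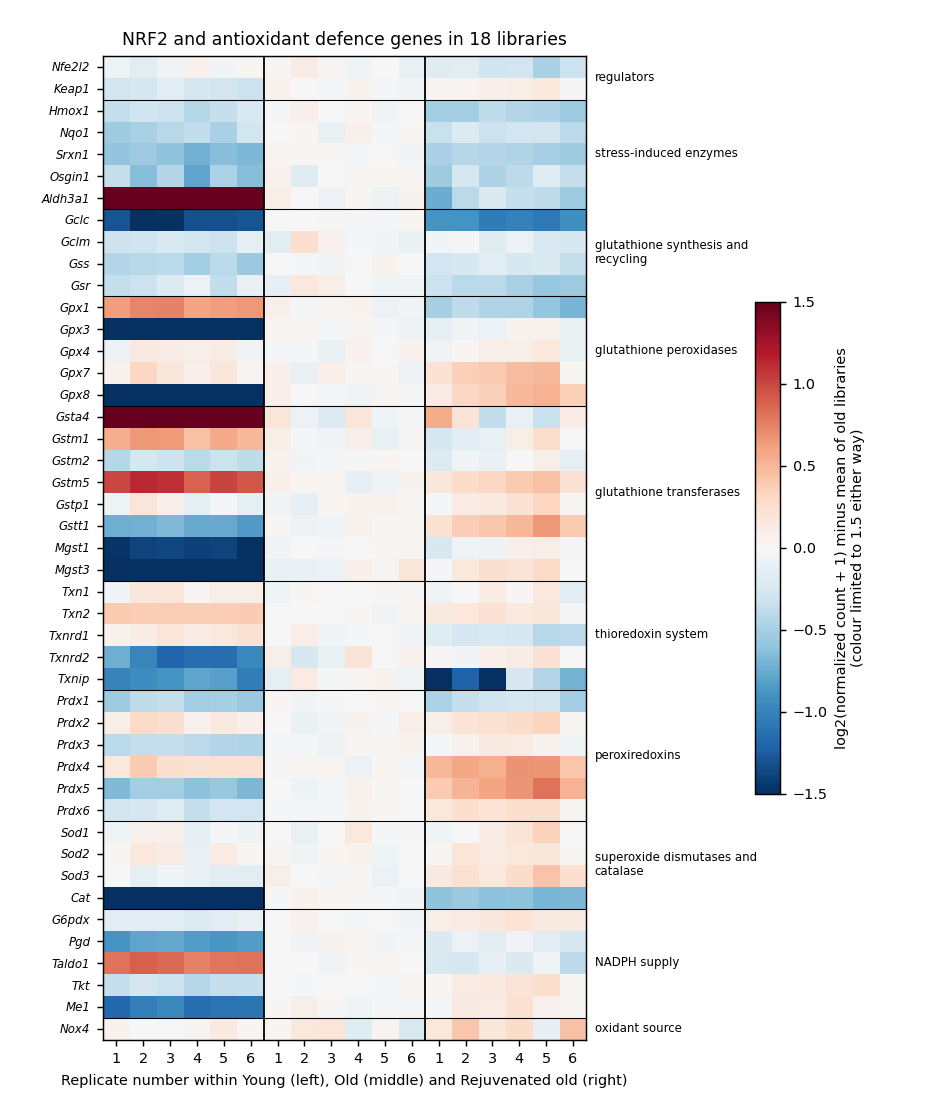
Each row is a gene and each column a library (Young, Old and Rejuvenated old, 6 replicates each), and the colour is log2(normalized count + 1) minus the mean of the old libraries, limited to 1.5 in either direction. The 5 stress-induced enzymes and Gclc are blue in all rejuvenated old libraries, Prdx4 and Prdx5 are red, and the young libraries hold the strongest colours, with the young means of Gpx3, Mgst3, Cat and Gpx8 below the lower limit and those of Gsta4 and Aldh3a1 above the upper one.

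Between young and old MSCs the differences were larger. Young MSCs had higher levels of 10 genes and lower levels of 27, where 41.6% and 44.1% of all genes were higher and lower. The 37 genes called were 82.2% of the set, beside 85.7% of all genes. There, 20 genes passed an absolute log2 fold change of 0.5 and 11 passed 1, beside 56.2% and 31.9% of all genes. In 8 genes every young library lay above every old library and in 24 every one lay below (35.7% and 38.2% of all genes). The median log2 fold change was -0.26, against -0.02 over all genes. Against rejuvenated old MSCs, 11 genes were higher and 28 lower in young MSCs, beside 41.5% and 44.1% of all genes (86.7% called in all, beside 85.6%). There, 13 genes passed an absolute log2 fold change of 1 (31.0% of all genes) and 16 passed 0.5 (54.9%). All young libraries lay above all rejuvenated old libraries in 8 genes and below them in 21, beside 34.0% and 36.5% of all genes. These comparisons share libraries, and so they are given side by side and not as independent results. In young against old MSCs the median fold change of all genes also differed by chromosome, at -0.66 on chromosome 1, 0.64 on chromosome 7 and -0.72 on chromosome 16 relative to the autosomes (log2). Mgst3 and Prdx6 lie on chromosome 1, Taldo1 and Nox4 on chromosome 7, and Sod1 and Txnrd2 on chromosome 16. In a fit with each library centred on the median of each chromosome, the log2 fold changes in young against old MSCs were -1.82 for Mgst3 (reported below as -2.48), 0.39 for Prdx6 (-0.27) and 0.19 for Taldo1 (0.82). They were -0.59 for Nox4 (0.04), 0.69 for Sod1 (-0.03) and -0.30 for Txnrd2 (-1.03). All 6 were called in the centred fit, with the direction of Prdx6 turned and with Nox4 and Sod1 called only there.

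**Figure D2:**
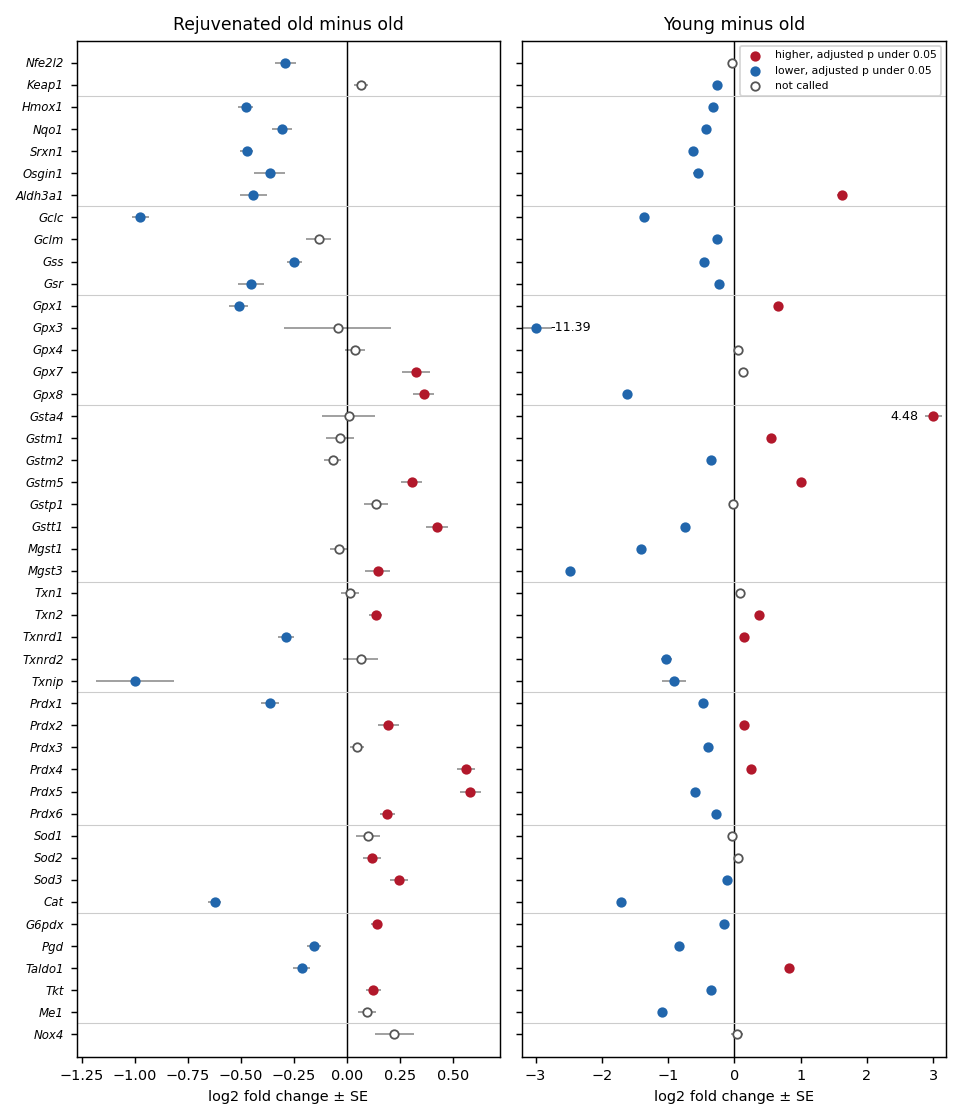
Points are log2 fold changes of the 45 genes, ordered by role, with standard errors as bars, for rejuvenated old minus old MSCs (left) and young minus old MSCs (right, limited to 3 in either direction). Filled points passed an adjusted p under 0.05: 30 genes on the left and 37 on the right. Gpx3 (-11.39) and Gsta4 (4.48) are drawn at the limit.

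Nfe2l2 (chromosome 2, 75675513 to 75704663, GRCm38) had normalized counts of 3295 to 3893 (median 3601) in old MSCs, 2539 to 3183 (median 2925) in rejuvenated old MSCs and 3177 to 3731 (median 3451) in young MSCs. After co-culture it was 18.2% lower (log2 fold change -0.29 ± 0.05, adjusted p = 6.7e-05), and every rejuvenated old library lay below every old one. Between young and old MSCs it did not pass the test (log2 fold change -0.04 ± 0.05, adjusted p = 0.46), while young MSCs were above rejuvenated old MSCs (log2 fold change 0.25 ± 0.05, adjusted p = 7.45e-05). Keap1, which encodes the inhibitor of NRF2, gave 2186 to 2339 (median 2230.4) in old MSCs, 2237 to 2508 (median 2349) in rejuvenated old MSCs and 1797 to 2014 (median 1873) in young MSCs. Rejuvenated old and old libraries overlapped and the difference was not called (log2 fold change 0.06 ± 0.03, adjusted p = 0.114). Young MSCs were lower than old MSCs without overlap (log2 fold change -0.26 ± 0.03, adjusted p = 1.03e-07). Of the exons of Keap1, 10.9% overlap a gene on the other strand, and whether counting used the strand is not given in the sources used here.

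All 5 stress-induced enzymes fell in rejuvenated old MSCs, and for each of them all 6 rejuvenated old libraries lay below all 6 old libraries. Among all genes, 20.6% fell and 11.6% had every rejuvenated old library below every old one. Hmox1 (chromosome 8, 75093618 to 75100593), the heme oxygenase, gave 21425 to 23495 (median 22201) in old MSCs, 15297 to 17096 (median 15928) in rejuvenated old MSCs and 16661 to 19043 (median 17701) in young MSCs. It fell by 28.1% (log2 fold change -0.48 ± 0.03, adjusted p = 3.62e-10). Young MSCs were also lower than old MSCs (log2 fold change -0.33 ± 0.03, adjusted p = 8.16e-09), and rejuvenated old MSCs were below young MSCs (log2 fold change 0.15 ± 0.03, adjusted p = 0.000503), a call that was lost with chromosome centring (-0.02, adjusted p = 0.678). Srxn1 encodes sulfiredoxin, which repairs overoxidized peroxiredoxins. Its counts were 3831 to 4056 (median 3973) in old MSCs, 2727 to 2942 (median 2863) in rejuvenated old MSCs and 2410.3 to 2722 (median 2575) in young MSCs. It fell by 28% (log2 fold change -0.47 ± 0.03, adjusted p = 4.34e-11), and the young level was lower still, with a log2 fold change against old MSCs of -0.63 ± 0.03. Nqo1, the quinone reductase, gave 782 to 889.9 (median 852) in old MSCs, 639 to 734 (median 683) in rejuvenated old MSCs and 584 to 696 (median 617) in young MSCs. The fall was 19.2% (log2 fold change -0.31 ± 0.05, adjusted p = 1.57e-05), and young MSCs differed from old MSCs by -0.43 ± 0.05 on the log2 scale (adjusted p = 1.11e-08). Osgin1, a growth inhibitor induced by oxidative stress, went from 549.7 ± 33 (SD, n = 6) in old to 428 ± 38.9 in rejuvenated old MSCs (log2 fold change -0.36 ± 0.07, adjusted p = 0.000324), and stood at 375 ± 41.9 in young MSCs.

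Aldh3a1, an aldehyde dehydrogenase, was the exception among these 5 enzymes in the young comparison. Its normalized counts were 724 to 827 (median 772) in old MSCs, 457 to 660.3 (median 586) in rejuvenated old MSCs and 2249 to 2575 (median 2338) in young MSCs. Young MSCs had 3.08 times the mean of old MSCs (log2 fold change 1.62 ± 0.06, adjusted p = 1.31e-16), whereas rejuvenated old MSCs were 25.9% below old MSCs (log2 fold change -0.44 ± 0.06, adjusted p = 1.04e-05). The rejuvenated old libraries were thus the farthest of all from the young level.

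**Figure D3:**
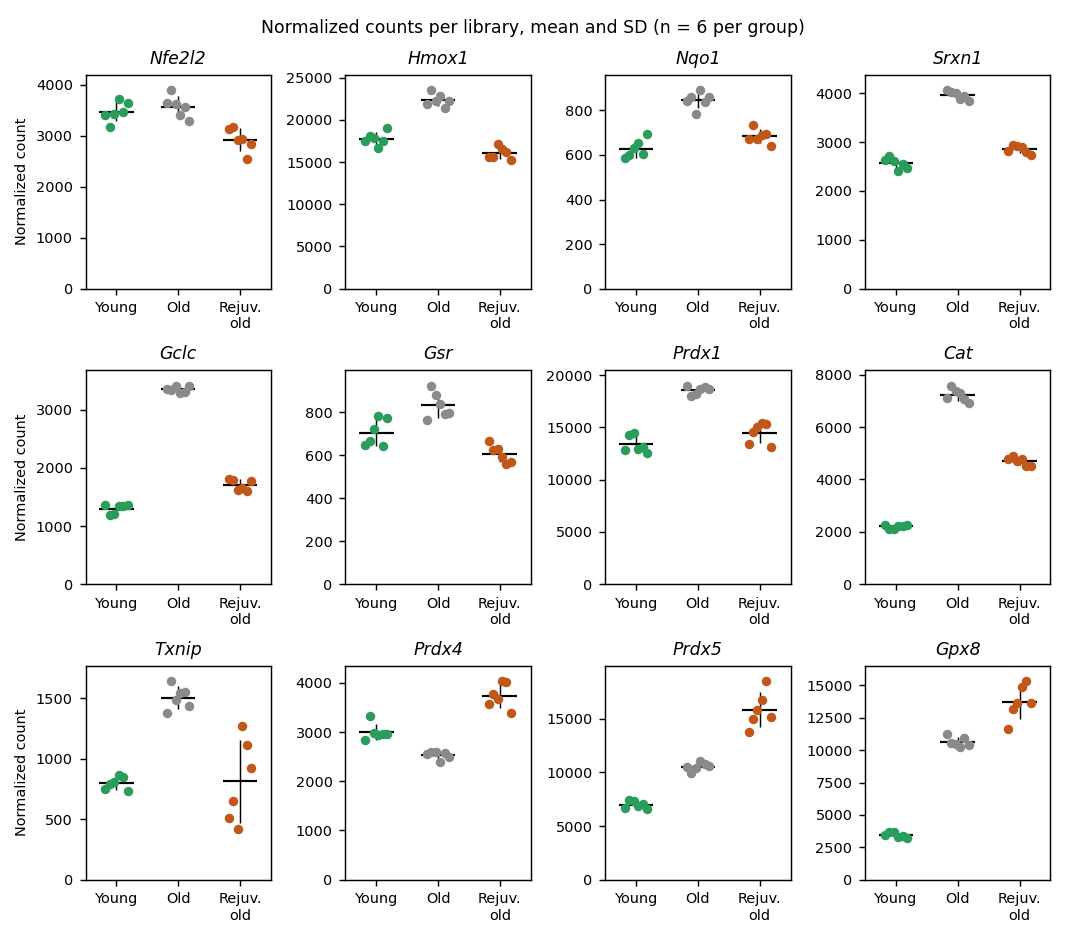
Normalized counts of 12 genes, with each point 1 library, the horizontal line the mean and the vertical line 1 SD to either side (n = 6 per group). The vertical axes start at 0. The rejuvenated old libraries lie below all old libraries for the first 9 genes (Nfe2l2 to Txnip) and above them for Prdx4, Prdx5 and Gpx8, and Txnip has the widest spread, from 417 to 1269.

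Glutathione is made in a pair of steps, the first of which is the slow one and is catalysed by glutamate-cysteine ligase. Gclc (chromosome 9, 77754535 to 77794489), the catalytic subunit of that ligase, gave 3288 to 3412 (median 3354) in old MSCs, 1596 to 1809 (median 1715) in rejuvenated old MSCs and 1188 to 1364 (median 1342) in young MSCs. It fell by 49% in rejuvenated old MSCs (log2 fold change -0.97 ± 0.04, adjusted p = 3.25e-14), with no overlap between any pair of the groups. In young MSCs it was 61.2% below old MSCs (log2 fold change -1.37 ± 0.04, adjusted p = 4.76e-19) and 23.9% below rejuvenated old MSCs (log2 fold change -0.39 ± 0.04). The modifier subunit Gclm was not called. Its counts were 759 to 1000.4 (median 829) in old MSCs, 717 to 836 (median 769) in rejuvenated old MSCs and 678 to 764 (median 690.3) in young MSCs, the old and rejuvenated old libraries overlapped, and the log2 fold change was -0.13 ± 0.06 (adjusted p = 0.0736). It was called with DESeq2 (adjusted p = 0.0461) but not with edgeR.

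Gss, the synthetase of the last step, went from 2339 ± 53.2 in old to 1969.7 ± 92.3 in rejuvenated old MSCs (log2 fold change -0.25 ± 0.04, adjusted p = 5.95e-06) and was 1708 ± 75.2 in young MSCs. Gsr encodes glutathione reductase, which returns oxidized glutathione to its reduced form. Its counts were 763 to 922 (median 814) in old MSCs, 561 to 665 (median 607) in rejuvenated old MSCs and 644 to 780.5 (median 692) in young MSCs. It fell by 27% (log2 fold change -0.45 ± 0.06, adjusted p = 2.66e-06), and its mean was below the young mean (log2 fold change 0.21 ± 0.06, adjusted p = 0.00228), with overlapping libraries and the call lost with chromosome centring (0.05, adjusted p = 0.436). All 4 genes of glutathione synthesis and recycling were lower in young than in old MSCs, beside 44.1% of all genes.

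The glutathione peroxidases did not move together. Gpx1, the main cytosolic form, gave 5808 to 6521 (median 6232) in old MSCs, 3831 to 4754 (median 4445) in rejuvenated old MSCs and 9349.6 to 10349 (median 9634) in young MSCs. It fell by 29.7% in rejuvenated old MSCs (log2 fold change -0.51 ± 0.04, adjusted p = 5.36e-09), although young MSCs were 58.2% above old MSCs (log2 fold change 0.66 ± 0.04, adjusted p = 2.31e-12), and the 3 groups did not overlap. Gpx8 and Gpx7 encode peroxidases of the endoplasmic reticulum (ER). Gpx8 gave 10220.2 to 11214 (median 10535) in old MSCs, 11605 to 15308 (median 13648) in rejuvenated old MSCs and 3237 to 3683 (median 3417) in young MSCs, with every rejuvenated old library above every old one. It rose by 28.8% (log2 fold change 0.36 ± 0.05, adjusted p = 5.73e-06), while its young mean was 3.08-fold below that of old MSCs (log2 fold change -1.62 ± 0.05, adjusted p = 1.21e-18). Gpx7 rose from 753 ± 41.1 to 947 ± 107 (log2 fold change 0.32 ± 0.07, adjusted p = 0.000364), with overlapping libraries. Gpx4, which reduces lipid hydroperoxides in membranes, stood at 6984 ± 302 in old MSCs, 7185 ± 482 after co-culture and 7248 ± 481 in young MSCs and was called in no comparison, although with chromosome centring it was higher in young than in old MSCs (0.22, adjusted p = 0.000146) and so it was with equal library totals and quantile normalization. Of its 50-base stretches, 61.7% are shared with pseudogenes, which leaves its counts uncertain.

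Gpx3, the secreted plasma peroxidase, separated young from old MSCs more than any other gene of the set. In young MSCs it had 21.8, 21.9, 15.6, 20.2 and 19.2 normalized counts in replicates 1 to 5 and 91.6 in replicate 6. In old MSCs it ran from 67480.3 to 73441 (median 71538) and in rejuvenated old MSCs from 64656 to 73909 (median 67846). Per kilobase of exon it had the highest old mean of the 45 genes. The young mean was 2242-fold below the old mean (log2 fold change -11.39 ± 0.25, adjusted p = 1.7e-21), and without young replicate 6 the log2 fold change was -11.75. For 7 other genes with at most 3 reads in young replicates 1 to 5 and an old mean of at least 2000, young replicate 6 stood at a median of 0.0800% of the old mean. Old and rejuvenated old MSCs were not called different (log2 fold change -0.04 ± 0.25, adjusted p = 0.907). Both the macrophage and the adipocyte marker sums were higher in old than in young MSCs, and their part in the Gpx3 level was not tested.

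**Figure D4:**
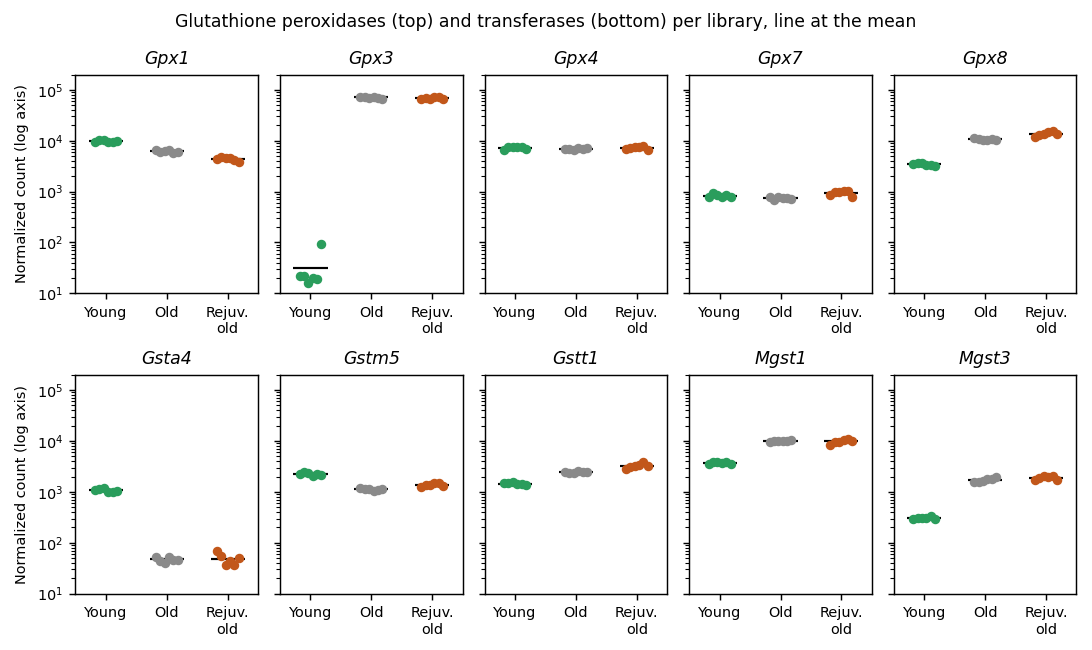
Normalized counts per library on a log axis for 5 glutathione peroxidases and 5 glutathione transferases, with the group mean as a line. Gpx3 lies between 15.6 and 91.6 in young MSCs and at 64656 or more in all other libraries, and Gsta4 shows the opposite order, while Gpx4 is level across the groups.

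The glutathione transferases, which attach glutathione to electrophiles, had 3 of 8 members higher and none lower after co-culture. The share called, 37.5%, was below the 41.6% of all genes. Gstt1 rose from 2438 ± 96.8 to 3282 ± 333 (log2 fold change 0.42 ± 0.05, adjusted p = 7e-07) and Gstm5 from 1125 ± 57.3 to 1389.6 ± 96 (log2 fold change 0.30 ± 0.05, adjusted p = 3.19e-05), both without overlap. Mgst3, a membrane-bound form, gave 1598 to 1940.4 (median 1685) in old MSCs, 1695 to 2087 (median 1933) in rejuvenated old MSCs and 288 to 334 (median 306) in young MSCs. Its call against old MSCs was marginal (log2 fold change 0.14 ± 0.06, adjusted p = 0.0496) and did not hold when any 1 of 12 of the 18 libraries was left out. Gsta4, Gstm1, Gstm2, Gstp1 and Mgst1 were not called with all libraries. Gstm2 was called lower when rejuvenated old replicate 5 was left out. Gstp1 was called higher without rejuvenated old replicate 1 (0.17, adjusted p = 0.0236), without its replicate 6 and without young replicate 2. The same held in a fit of only the 2 groups compared (adjusted p = 0.0447). Without rejuvenated old replicate 1, 4 of the 8 transferases were called higher and none lower.

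Between young and old MSCs the transferases differed widely, in both directions. Gsta4, which conjugates the lipid breakdown product hydroxynonenal, gave 40.9 to 53.8 (median 45.7) in old MSCs, 36.2 to 70 (median 47.2) in rejuvenated old MSCs and 977 to 1178 (median 1067) in young MSCs. Its young mean was 22.7 times the old mean (log2 fold change 4.48 ± 0.13, adjusted p = 1.68e-19). The highest rejuvenated old library was replicate 1, the library that also carried the young-specific genes, and without it the difference from old MSCs was -0.10 (adjusted p = 0.475). Mgst1 gave 9672 to 10275 (median 10029) in old MSCs, 8498 to 10724 (median 9723) in rejuvenated old MSCs and 3583 to 3889.6 (median 3797) in young MSCs, a log2 fold change of -1.42 ± 0.04 in young against old MSCs. For Mgst3 it was -2.48 ± 0.06, and the median of chromosome 1 was -0.66. Gstm5 (1.01 ± 0.05) and Gstm1 (0.55 ± 0.06) were higher in young MSCs, and Gstt1 (-0.74 ± 0.05) and Gstm2 (-0.35 ± 0.04) were lower. Shared sequence with other transferase genes or pseudogenes covers 62.3% of the 50-base stretches of Gstp1, 23.2% of Gstm1 and 9.36% of Gstm2.

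In the thioredoxin system, the reductase Txnrd1 and the inhibitor Txnip fell and the mitochondrial carrier Txn2 rose. Txnrd1, the cytosolic reductase, gave 4796 to 5288 (median 4899.6) in old MSCs, 3695 to 4337 (median 4142) in rejuvenated old MSCs and 5116 to 5759 (median 5433) in young MSCs. It fell by 18% (log2 fold change -0.29 ± 0.04, adjusted p = 3.81e-06), and the young libraries lay above the rejuvenated old ones (log2 fold change 0.43 ± 0.04, adjusted p = 6.63e-10). Txnip encodes the arrestin-like protein that binds thioredoxin and limits glucose uptake. Its old libraries ran from 1375 to 1640.4 (median 1518) and its young libraries from 731 to 866 (median 799.9). The rejuvenated old libraries were at 511, 649, 417, 1269, 1113 and 924 in replicates 1 to 6, a spread of 342 (SD) around a mean of 814. Replicates 1 to 3 were all below every young library and replicates 4 to 6 all above, while all 6 lay below every old library. The mean was 46% lower than in old MSCs (log2 fold change -1.0 ± 0.18, adjusted p = 0.000138). An antisense gene covers 19.4% of its exons. Txn1 (6801 ± 148 in old and 6881 ± 520.3 in rejuvenated old MSCs) was not called. The mitochondrial reductase Txnrd2 gave 297 to 402 (median 360.4) in old MSCs, 343 to 409.8 (median 364) in rejuvenated old MSCs and 154 to 211 (median 168) in young MSCs, and old and rejuvenated old libraries overlapped (log2 fold change 0.06 ± 0.08, adjusted p = 0.563). The rise of Txn2 was small (log2 fold change 0.14 ± 0.03, adjusted p = 0.00108). Txnrd2 differed by -1.03 ± 0.08 on the log2 scale in young against old MSCs (adjusted p = 3.98e-11), on chromosome 16 where the median gene was at -0.72.

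Among the 6 peroxiredoxins, 4 rose and 1 fell in rejuvenated old MSCs (83.3% called, beside 41.6% of all genes). Prdx5, found in mitochondria, peroxisomes and cytosol, gave 9982 to 11023 (median 10544) in old MSCs, 13801 to 18480.4 (median 15504) in rejuvenated old MSCs and 6619 to 7428 (median 6999.6) in young MSCs. It rose by 50.2% (log2 fold change 0.58 ± 0.05, adjusted p = 5.77e-09), to 2.26 times the young mean, and the 3 groups did not overlap. A gene on the other strand, Trmt112, covers 19.1% of its exons. Prdx4, the peroxiredoxin of the ER, gave 2387 to 2587 (median 2567) in old MSCs, 3383 to 4028 (median 3722) in rejuvenated old MSCs and 2835 to 3322 (median 2966) in young MSCs. It rose by 47.6% (log2 fold change 0.56 ± 0.04, adjusted p = 5.73e-10) and ended above the young level (log2 fold change -0.32 ± 0.04, adjusted p = 3.35e-07), again with no overlap between the groups. The promoter of Prdx1, the abundant cytosolic form, carries the first of the cores printed above, which overlaps an AP-1 motif. Prdx1 moved the other way. It went from 18580.4 ± 384 to 14476 ± 999.9 (log2 fold change -0.36 ± 0.04, adjusted p = 5.71e-07) and was 13393 ± 809 in young MSCs. Prdx6, which acts with glutathione, gave 3018 to 3205 (median 3068) in old MSCs, 3166 to 3679 (median 3594) in rejuvenated old MSCs and 2417 to 2707 (median 2540.2) in young MSCs, with a rise of 14.1% (log2 fold change 0.19 ± 0.04, adjusted p = 0.000152) and overlapping libraries. It was lower in young than in old MSCs (log2 fold change -0.27 ± 0.04, adjusted p = 1.77e-07), on chromosome 1 where the median gene was at -0.66, and relative to that median it was higher by 0.39. Prdx2 rose by 14.6% (log2 fold change 0.19 ± 0.05, adjusted p = 0.00333) and the mitochondrial Prdx3 was not called (log2 fold change 0.05 ± 0.03, adjusted p = 0.302).

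Catalase, which breaks down hydrogen peroxide in peroxisomes, fell while 2 of the 3 superoxide dismutases rose. Of these 4 genes 75% were called, beside 41.6% of all genes. Cat (chromosome 2, 103453904 to 103485153) gave 6942 to 7577 (median 7198) in old MSCs, 4506 to 4899 (median 4737) in rejuvenated old MSCs and 2116 to 2275 (median 2223) in young MSCs. It fell by 35% (log2 fold change -0.62 ± 0.03, adjusted p = 2.68e-13), and young MSCs were 69.5% below old MSCs (log2 fold change -1.71 ± 0.03, adjusted p = 2.37e-23). None of its 3 groups overlapped, with the rejuvenated old libraries between the others. Sod3, the secreted dismutase, rose from 4523 ± 175 to 5372 ± 399.6 (log2 fold change 0.25 ± 0.04, adjusted p = 7.26e-05). Sod2, the mitochondrial form, gave 1403 to 1521 (median 1486) in old MSCs, 1495 to 1669.8 (median 1622) in rejuvenated old MSCs and 1359.5 to 1634 (median 1546) in young MSCs, and its rise of 8.50% was near the threshold (log2 fold change 0.12 ± 0.04, adjusted p = 0.0336). Leaving out 1 library in turn ended that call for old replicates 2 and 5 and rejuvenated old replicates 2, 3, 4 and 5, with adjusted p up to 0.0767, as did chromosome centring (log2 fold change 0.07, adjusted p = 0.166). The cytosolic Sod1 was not called in rejuvenated old against old MSCs (log2 fold change 0.10 ± 0.06, adjusted p = 0.182) nor in young against old MSCs (log2 fold change -0.03 ± 0.06, adjusted p = 0.627). Relative to the median of its chromosome, 16, it was higher in young MSCs (0.69, adjusted p = 1.35e-10), and 23.1% of its 50-base stretches are shared with a pseudogene.

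Of the 5 enzymes listed under NADPH supply, 2 rose and 2 fell after co-culture (80% called, beside 41.6% of all genes). The list includes Tkt and Taldo1, which do not make NADPH themselves. G6pdx, the entry step of the pentose phosphate pathway, gave 7318 to 7872 (median 7509) in old MSCs, 8053 to 8677 (median 8268) in rejuvenated old MSCs and 6540.5 to 6969 (median 6728) in young MSCs. It rose by 10.3% without overlap (log2 fold change 0.14 ± 0.03, adjusted p = 0.00015). Pgd, the next NADPH-producing step, fell from 8156 ± 211 to 7321 ± 372 (log2 fold change -0.16 ± 0.03, adjusted p = 0.000527). In the branch that interconverts sugars, Tkt rose by 9.11% (log2 fold change 0.12 ± 0.03, adjusted p = 0.00592) and Taldo1 fell by 13.6% (log2 fold change -0.21 ± 0.04, adjusted p = 0.000224). Me1, the cytosolic malic enzyme, gave 2705 to 3012 (median 2835) in old MSCs, 2784 to 3329.8 (median 3034) in rejuvenated old MSCs and 1258 to 1457 (median 1319.7) in young MSCs and was not called (log2 fold change 0.10 ± 0.04, adjusted p = 0.0725). Its young level was 52.9% below that of old MSCs (log2 fold change -1.09 ± 0.04, adjusted p = 6.39e-17), and 26.5% of its 50-base stretches are shared with pseudogenes. Pgd (-0.83 ± 0.03), Tkt (-0.35 ± 0.03) and G6pdx (-0.16 ± 0.03) were also lower in young MSCs. Taldo1 was higher by 0.82 ± 0.04, on chromosome 7 where the median gene was at 0.64.

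Nox4, the NADPH oxidase of stromal cells that makes hydrogen peroxide, was the least abundant of the 45 genes per kilobase of exon in old MSCs. Its normalized counts were 152 to 203 (median 182) in old MSCs, 163 to 242 (median 208) in rejuvenated old MSCs and 177 to 196 (median 182) in young MSCs, and all groups overlapped. It was not called in rejuvenated old against old MSCs (log2 fold change 0.22 ± 0.09, adjusted p = 0.056), but DESeq2 and edgeR on the recovered reads gave adjusted p = 0.0376 and 0.0457. It was not called in young against old MSCs (log2 fold change 0.04 ± 0.09, adjusted p = 0.666), while relative to the median of chromosome 7 it was lower in young MSCs (-0.59, adjusted p = 7.51e-06).

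A further 131 genes of the same pathways, listed apart from the 45, were tested. After co-culture 30 of them had risen and 38 had fallen, and young MSCs had higher levels of 55 and lower levels of 62 than old MSCs. The genes called were 51.9% of the 131 after co-culture, beside 41.6% of all genes, and 89.3% in young against old MSCs, beside 85.7%. Their median log2 fold changes were -0.03 and -0.04. The partners and regulators of NRF2 comprised 15 genes, of which 1 rose and 7 fell in rejuvenated old MSCs (53.3% called, beside 41.6% of all genes), or 2 rose when any 1 of rejuvenated old replicates 1, 4 and 6 was left out. The gene that rose was Maff, a small MAF partner, which gave 1103 to 1198 (median 1128) in old MSCs, 1712 to 2095 (median 1888) in rejuvenated old MSCs and 885 to 992 (median 965) in young MSCs (log2 fold change 0.73 ± 0.04, adjusted p = 1.33e-11), without overlap. The repressor Bach1, which competes with NRF2 for the same elements, fell from 1011 ± 59.7 to 765 ± 54.5 (log2 fold change -0.40 ± 0.06, adjusted p = 4.76e-06), and the small MAF gene Mafg fell from 611 ± 33.2 to 470.1 ± 19.3 (log2 fold change -0.38 ± 0.05, adjusted p = 1.32e-06). Sqstm1, the autophagy receptor that sequesters KEAP1, fell by 8.24% (log2 fold change -0.12 ± 0.03, adjusted p = 0.00168). In young against old MSCs 7 of the 15 were higher and 7 lower (93.3% called, beside 85.7% of all genes). The largest differences were in Btrc (-1.04 ± 0.03), a subunit of a ligase for NRF2, then Mafk (0.65 ± 0.06) and the low-count Nfe2l3 (0.64 ± 0.27). The call of Nfe2l3 was lost with chromosome centring (0.55, adjusted p = 0.0682). Bach1 was lower in young MSCs (-0.39 ± 0.06), on chromosome 16, and relative to the median of that chromosome it was higher by 0.34.

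Among 38 further NRF2 targets, 10 rose and 12 fell in rejuvenated old MSCs (57.9% called, beside 41.6% of all genes). In young against old MSCs 16 were higher and 19 lower (92.1% called, beside 85.7% of all genes). Slc7a11, the cystine importer that limits glutathione synthesis, had 36.6, 55.1, 40.9, 39.1, 42.1 and 41.4 normalized counts in old replicates 1 to 6. In rejuvenated old replicates 1 to 6 it had 134, 58.5, 109, 44.4, 64.3 and 56.6, so that the groups overlapped and replicates 1 and 3 were highest. The rise was called (log2 fold change 0.76 ± 0.19, adjusted p = 0.00264), and without replicate 1 the log2 fold change was 0.58 (adjusted p = 0.00483). In young MSCs Slc7a11 ran from 491 to 596 (median 529), with a log2 fold change against old MSCs of 3.63 ± 0.19. Aox1, aldehyde oxidase, fell from 1782 ± 111 to 1028 ± 92.2 (log2 fold change -0.80 ± 0.06, adjusted p = 6.83e-10), beside a young mean of 986. Young and rejuvenated old MSCs were not called different (-0.06, adjusted p = 0.36). With chromosome centring, however, Aox1 was higher in young than in rejuvenated old MSCs (0.58, adjusted p = 7.01e-09), and its difference in young against old MSCs shrank from -0.86 to -0.19. Ces2e, a carboxylesterase with few reads, fell from 27 ± 9.95 to 10.9 ± 4.75 (log2 fold change -1.25 ± 0.43, adjusted p = 0.0228). Between young and old MSCs the epoxide hydrolase Ephx1 was 13.7-fold lower in young MSCs (log2 fold change -3.77 ± 0.03, adjusted p = 7.1e-28). With chromosome centring the log2 fold change of Ephx1 was -3.11. The transporter Abcc3 ran from 1.03 to 12 (median 3.65) in young and from 522 to 595 (median 577) in old MSCs. The lipase Lipg had at most 3 reads in any old library and a mean of 72.8 normalized counts in young MSCs.

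In the thiol repair list, 5 of 22 genes rose and 6 fell in rejuvenated old MSCs (50% called, beside 41.6% of all genes). Young MSCs had 5 higher and 14 lower than old MSCs (86.4% called, beside 85.7% of all genes). Chac1, which degrades glutathione, had 109.7, 218, 149, 119, 119 and 117 normalized counts in old replicates 1 to 6 and 618, 307, 563, 306, 312 and 359 in rejuvenated old replicates 1 to 6. The groups did not overlap, and replicates 1 and 3 were again the highest. It rose by 1.54 on the log2 scale (adjusted p = 2.06e-07) and by 1.41 without replicate 1, and the young mean was 2011. Ggt5, an extracellular enzyme that cleaves glutathione conjugates, fell from 2192 ± 114 to 1629 ± 96.8 (log2 fold change -0.43 ± 0.05, adjusted p = 2.63e-07) and was at 299 ± 19.6 in young MSCs. Txnrd3 (log2 fold change 0.35 ± 0.05, adjusted p = 6.77e-06), the glutaredoxin Glrx (log2 fold change 0.30 ± 0.05, adjusted p = 7.46e-05) and Park7 (log2 fold change 0.27 ± 0.04, adjusted p = 4.59e-05), which encodes the oxidant sensor DJ-1, rose. Msrb2, a mitochondrial methionine sulfoxide reductase, fell by 18.9% (log2 fold change -0.30 ± 0.07, adjusted p = 0.0019) and differed most between young and old MSCs, at 37.6 ± 5.12 against 650.0 ± 15.1.

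Of 20 genes listed with other sources of NADPH, 8 rose and 5 fell in rejuvenated old MSCs (65% called, beside 41.6% of all genes). Not all of them make NADPH, Fdxr and Mthfd1l among those that do not, so the counts do not describe NADPH supply alone. Aldh1l2, the mitochondrial formyltetrahydrofolate dehydrogenase, went from 321 to 479.5 (median 362) in old to 620.0 to 1269.7 (median 736) in rejuvenated old MSCs (log2 fold change 1.14 ± 0.14, adjusted p = 1.37e-06), without overlap. Replicates 1 and 3 were the highest here too, at 1269.7 and 1107. Mthfd1l, another enzyme of mitochondrial folate metabolism, rose from 1007 ± 62.1 to 1624 ± 136 (log2 fold change 0.69 ± 0.05, adjusted p = 4.98e-10). Fdxr, the mitochondrial ferredoxin reductase, fell from 1714 ± 111 to 1045 ± 112 (log2 fold change -0.72 ± 0.06, adjusted p = 4.15e-09) and was at 272 ± 15.5 in young MSCs. The isocitrate dehydrogenases moved apart, with the cytosolic Idh1 falling by 30.7% (log2 fold change -0.53 ± 0.04, adjusted p = 6.26e-10) and the mitochondrial Idh2 rising by 14.4% (log2 fold change 0.19 ± 0.03, adjusted p = 3.44e-05). Between young and old MSCs Idh1, on chromosome 1, differed by -1.98 and Idh2, on chromosome 7, by 0.99. Nnt, the transhydrogenase of the mitochondrial membrane, was at 2297 ± 67.6 in young MSCs, 1414 ± 82.1 in old MSCs and 1206 ± 61.4 after co-culture (log2 fold change -0.23 ± 0.04, adjusted p = 8.78e-05 for the last against old). Me3, a mitochondrial malic enzyme on chromosome 7, was at 153 ± 19.5 in young and 19.1 ± 6.82 in old MSCs (log2 fold change 3.02 ± 0.23, adjusted p = 2.62e-11), and was not called after co-culture (log2 fold change 0.15 ± 0.23, adjusted p = 0.642). Some C57BL/6 substrains carry a partial deletion of Nnt, and a count per gene does not show which exons were read.

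The selenoprotein list holds genes of the machinery that places selenocysteine in Gpx1, Gpx3, Gpx4 and the thioredoxin reductases. It also holds genes of other selenoproteins and of a receptor, so its counts do not describe that machinery alone. In this list 3 of 19 genes rose and 5 fell. The share called, 42.1%, was near the 41.6% of all genes, and 5 rose when rejuvenated old replicate 6 was left out. Selenop, the selenium carrier, fell from 26653 ± 1141 to 19529.6 ± 1714 (log2 fold change -0.45 ± 0.05, adjusted p = 7.99e-08), and its receptor gene Lrp8 from 109 ± 15.8 to 47.3 ± 22.7 (log2 fold change -1.28 ± 0.18, adjusted p = 8.61e-06). Rejuvenated old replicate 1 was the highest for Lrp8, at 92.7, and without it the log2 fold change was -1.49. Secisbp2l fell by 13.2% (log2 fold change -0.21 ± 0.04, adjusted p = 0.000401). Between young and old MSCs 8 of the 19 were higher in young MSCs and 6 lower (73.7% called, beside 85.7% of all genes). Besides Selenop (-1.47 ± 0.05), the largest differences were in Scly, the selenocysteine lyase, at 312 ± 12.4 in young and 741 ± 38.8 in old MSCs (log2 fold change -1.24 ± 0.05, adjusted p = 6.43e-17), and in Pstk, the kinase that prepares its transfer RNA, at 621 ± 56.1 and 279 ± 9.82 (log2 fold change 1.15 ± 0.06, adjusted p = 4.87e-14). Scly lies on chromosome 1 and Pstk on chromosome 7, where the median gene was at -0.66 and 0.64.

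Among 17 oxidant-producing enzymes 3 rose and 3 fell in rejuvenated old MSCs, and the share called, 35.3%, was below the 41.6% of all genes. Ero1a, the ER oxidase that makes hydrogen peroxide while it forms disulfides, gave 621 to 835 (median 693) in old MSCs, 1404 to 1772 (median 1529.6) in rejuvenated old MSCs and 1829 to 2295 (median 2009.5) in young MSCs. It rose to 2.22 times the old mean (log2 fold change 1.15 ± 0.06, adjusted p = 3.67e-12) without overlap. Maob, a monoamine oxidase of mitochondria, rose from 153 ± 19.7 to 202 ± 32 (log2 fold change 0.40 ± 0.13, adjusted p = 0.0212), and the low-count Duox1 fell from 37.8 ± 8.79 to 22.1 ± 5.64 (log2 fold change -0.75 ± 0.19, adjusted p = 0.00262). The subunits of the phagocyte oxidase were not called on co-culture but set young apart from old MSCs. Cybb, its catalytic subunit, had at most 1 read in any young library and 167 to 190.0 (median 174) normalized counts in old MSCs. Ncf4 had no read in any young library, a level treated as at the floor, and 97.2 to 127 (median 105) normalized counts in old MSCs. Rac2 ran from 0 to 5.15 (median 1.00) in young MSCs and from 345 to 412 (median 351) in old MSCs. Cyba, the small subunit that also serves Nox4, was by contrast higher in young MSCs (1877 ± 148 against 715 ± 69.8, log2 fold change 1.39 ± 0.07). Most macrophage markers differed in the same direction as Cybb, Ncf4 and Rac2, with 6 of 12 above a mean of 10 in young MSCs and all 12 in old MSCs. Aif1 was higher in young MSCs (mean 23.1 against 15.0), and Cd14 (240 against 327) and Cd74 (55.0 against 86.4) differed far less. The part of these markers was not tested.

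**Figure D5:**
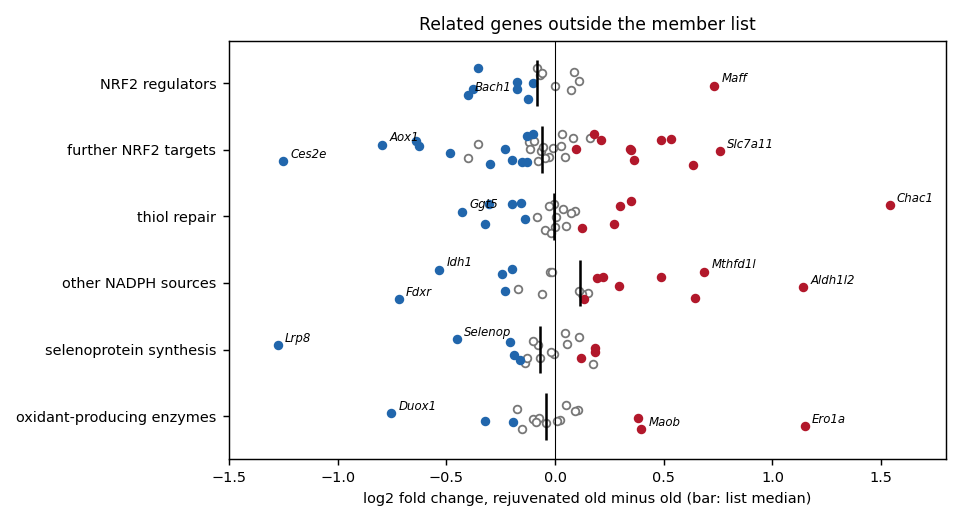
Each point is 1 of the 131 related genes, placed by list (vertical) and by log2 fold change of rejuvenated old minus old MSCs (horizontal), filled where the adjusted p was under 0.05 (30 higher in red, 38 lower in blue), and the bar is the median of the list. The list medians lie between -0.08 and 0.12, while single genes reach 1.54 (Chac1) and -1.28 (Lrp8).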

How the data were processed

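Poly(A) RNA libraries of 18 MSC cultures were sequenced. Per the paper's methods and the labels, reads were mapped to mm10 (HISAT2), passed through StringTie and featureCounts, and normalized by DESeq2, all by the authors on Galaxy. Versions, annotation, strand setting and filters are not given in the sources used here. In the deposited table each library has its own column of signal values, the normalized counts (reads over 1 size factor per library). Whole reads were recovered for 100% of the values (tolerance 0.1 read), giving 22936251 to 29559194 reads per library.

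Tests ran on log2(value + 1) in limma 3.58.1 in R 4.3.3 (variance trend, the 3 groups in 1 fit, 14353 genes with a mean of at least 10, Benjamini-Hochberg adjustment, threshold 0.05). DESeq2 1.42.0 and edgeR 4.0.16 on the recovered reads, other pseudocounts (0.5 and 10), filters, scalings, thresholds, a replicate block and leaving out each library were alternatives. The scripts were tested on simulated data. Tables and figures used Python 3.11.15, pandas 2.3.3 and matplotlib 3.10.9. Chromosomes, positions and promoters came from RefSeq for GRCm38.p6, and exon overlaps and shared 50-base stretches from a GENCODE annotation of the same build. The columns used hold no other samples.

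The 45 genes, the related lists and the tests were chosen with earlier results of these data known. Values in every group are given for 15 genes fixed by name and the 10 largest fold changes among called genes in each of 2 comparisons (rejuvenated old and young, each against old). From each related list, the 3 largest in each of these comparisons and 12 genes fixed by name are given. A group at or under 3 reads in every library was treated as at the floor.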

Additional observations from a re-analysis of the deposited data

Results flagged for a closer look

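Among 83 named genes in 3 groups of 6 libraries (249 groups), 17 had a library whose gap to its nearest neighbour divided by the range of the group passed the critical value of Dixon's test for 6 values. Chance alone flags about 1 in 20 groups. Old replicate 2 stood apart for Osgin1 (484 normalized counts, lowest), Txnrd1 (5288, highest), Slc7a11 (55.1, highest) and Chac1 (218, highest). Without it the log2 fold changes of rejuvenated old against old MSCs were -0.40 for Osgin1, 0.83 for Slc7a11 and 1.68 for Chac1, all called. Old replicate 4 was the highest for Rac2 (412) and Ncf4 (127), old replicate 1 for Ephx1 (24378) and old replicate 3 for Lipg (3.23).

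Among young libraries, replicate 6 was far above the others for Gpx3 (91.6, against 15.6 to 21.9), replicate 2 was the highest for Prdx4 (3322), replicate 5 the highest for Nox4 (196) and replicate 1 the lowest for Glrx (696). Among rejuvenated old libraries, replicate 1 was the highest for Lrp8 (92.7, against 31.1 to 42.5) and Me3 (33), replicate 6 the lowest for Txn2 (3977) and replicate 3 the lowest for Btrc (1715). Rejuvenated old replicate 2 had the only Lipg read of its group (0.944).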

How the results depend on the processing

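The directions of the 30 genes called after co-culture were kept under every alternative tried. Most of their calls were lost under 1 of them. When a log2 fold change of 0.5 or more in either direction was also required, 2 of the 45 genes were higher and 4 lower after co-culture, 6 and 14 in young against old MSCs, and 6 and 10 in young against rejuvenated old MSCs, and of the 131 related genes 9 rose and 8 fell after co-culture. Under all other alternatives the counts of calls over the 45 and over the 131 genes stayed within 1.5 times of those reported. Counts over the smaller lists moved more, such as NRF2 regulators that rose after co-culture (1, or 2 without any 1 of rejuvenated old replicates 1, 4 and 6), selenoprotein genes that rose (3, or 5 without rejuvenated old replicate 6) and further NRF2 targets that rose (10, or 6 at an adjusted p under 0.01). After co-culture, leaving out 1 library in turn ended the calls of Mgst3 and Sod2 and added Gclm, Gstm2, Gstp1, Me1 and Nox4. DESeq2 on the recovered reads shared all 30 calls of limma and added Gclm and Nox4, and edgeR shared all 30 and added Nox4. Centring each chromosome on its own median reversed Prdx6 in young against old MSCs (0.39, adjusted p = 1.28e-09) and in young against rejuvenated old MSCs (0.18), Sod1 in young against rejuvenated old MSCs (0.60) and Bach1 in young against old MSCs (0.34, adjusted p = 1.16e-05). With that centring 1 call among the 45 genes was lost after co-culture (Sod2). In young against old MSCs 2 were lost (Prdx2 and Prdx4) and 6 added (Gpx4, Gpx7, Txn1, Sod1, Sod2 and Nox4), and in young against rejuvenated old MSCs 5 were lost (Hmox1, Gsr, Gpx7, Txn2 and Prdx1) and 5 added (Gpx4, Txn1, Prdx2, Sod2 and Nox4). The other scalings moved the median of all genes by at most 0.09 (log2). The replicate numbers did not pair the libraries (same-numbered correlations of -0.15 to 0.07, with 1 of 18 libraries closest to its own number). With the number as a replicate block, 13 genes were higher and 16 lower after co-culture, with Sod2 lost, and 12 and 27 in young against old MSCs. The low-count genes Nfe2l3, Ces2e and Duox1 carry wide errors at this depth.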

Other observations

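The genes below are from the related lists but were picked and grouped after their values were seen, so they are given as levels and log2 fold changes (± SE) of rejuvenated old against old MSCs, without a test and not as a result about any pathway. Fth1, the ferritin heavy chain, was at 148135 ± 6090.1 (SD, n = 6) in old and 105967 ± 5972 in rejuvenated old MSCs (-0.48 ± 0.05). For Ftl1, the ferritin light chain, the log2 fold change was -0.15 ± 0.04, and for the heme transporter gene Slc48a1 it was -0.13 ± 0.03. It was 0.18 ± 0.05 for Blvra, which reduces the biliverdin that heme oxygenase makes, and -0.11 ± 0.05 for Blvrb. The exporters Abcc4 and Abcc1 stood at -0.64 ± 0.07 and -0.20 ± 0.03.

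Among enzymes of serine synthesis and folate metabolism, Mthfd2 was at 909 ± 76.5 in old and 1437 ± 261 in rejuvenated old MSCs (0.65 ± 0.08), Shmt2 at 4039 ± 175 and 5676 ± 566 (0.49 ± 0.05) and Psat1 at 2085 ± 195 and 2723 ± 583 (0.36 ± 0.09). The log2 fold change was 0.21 ± 0.07 for Phgdh, -0.17 ± 0.08 for the cytosolic Shmt1 and -0.02 ± 0.03 for Mthfd1, and for the glycine transporter gene Slc6a9 it was 0.53 ± 0.08. Among genes of the ER it was -0.04 ± 0.09 for the oxidase gene Ero1b, 0.19 ± 0.05 for Selenok, 0.12 ± 0.04 for Selenom, -0.16 ± 0.05 for Selenos and -0.19 ± 0.05 for Selenot.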
